A study of Mus musculus with 6 samples.

Results

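The genes described here are the 6 regenerating (Reg) genes that sit side by side on mouse chromosome 6, Reg1, Reg2, Reg3a, Reg3b, Reg3d and Reg3g, and 4 further genes known from acute injury of the pancreas, Lcn2, Saa3, Ccl2 and Cxcl1. They were chosen by name and found by their Ensembl identifiers, 10 genes of 55414 in the count tables. Messenger RNA was sequenced in 6 preparations of acinar cells, the cells of the exocrine pancreas that make digestive enzymes, from untreated adult mice. The 3 controls carried the genotype Pdx1Cre;Trip12+/+ and the 3 knockouts the genotype Pdx1Cre;Trip12fl/fl. Every animal therefore carried the Cre recombinase driven by Pdx1, a promoter active in the pancreatic epithelium from early development, and only the knockouts carried the floxed alleles of Trip12, a ubiquitin ligase gene. The labels call the 3 preparations of each genotype biological replicates and number them 1 to 3. They do not say what a shared number stands for, nor how the acinar cells were obtained, and age beyond adult is not given.

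Reg genes encode small secreted lectin-like proteins. Mouse Reg1 and Reg2 are made by acinar cells, Reg3b and Reg3g are best known as antibacterial proteins of the intestine, and Reg3b was first known as pancreatitis-associated protein because it climbs steeply when the pancreas is inflamed. Cytokines of the interleukin-6 and interleukin-22 type, acting through the transcription factor STAT3, are established inducers of Reg3 genes. Lcn2 (lipocalin 2, an iron-siderophore binding protein), Saa3 (an acute phase apolipoprotein), Ccl2 (which attracts monocytes) and Cxcl1 (which attracts neutrophils) are induced in damaged tissue through inflammatory signals that include NF-kB.

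The bases before the transcription starts of 5 Reg genes are shown. Of these, Reg3b, Reg3a and Reg2 stepped together between libraries, and Reg3g is the closest relative of Reg3b. Reg1, the most abundant gene of the family, stepped less. Each line holds the 250 bases before the RefSeq start on build GRCm38.p6, written 5′ to 3′ along the gene. Capitals mark matches on either strand to TATAAA (the TATA box), TTCNNNGAA (the site of STAT factors), CACCTG and TTTCCC (the E-box and the TC-box of the site of the acinar factor PTF1).
Reg3b (chr6:78370635-78370884, plus strand): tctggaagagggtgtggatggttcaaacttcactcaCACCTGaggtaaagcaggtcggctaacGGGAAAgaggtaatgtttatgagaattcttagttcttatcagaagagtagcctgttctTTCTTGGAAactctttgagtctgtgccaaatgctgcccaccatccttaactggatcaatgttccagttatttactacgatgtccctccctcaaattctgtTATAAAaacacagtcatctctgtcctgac
Reg3a (chr6:78380459-78380708, plus strand): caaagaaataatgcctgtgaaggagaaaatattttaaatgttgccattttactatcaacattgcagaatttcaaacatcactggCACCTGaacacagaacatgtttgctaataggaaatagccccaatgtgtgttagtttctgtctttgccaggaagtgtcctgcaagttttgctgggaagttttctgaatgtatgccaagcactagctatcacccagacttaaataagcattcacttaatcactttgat
Reg2 (chr6:78404905-78405154, plus strand): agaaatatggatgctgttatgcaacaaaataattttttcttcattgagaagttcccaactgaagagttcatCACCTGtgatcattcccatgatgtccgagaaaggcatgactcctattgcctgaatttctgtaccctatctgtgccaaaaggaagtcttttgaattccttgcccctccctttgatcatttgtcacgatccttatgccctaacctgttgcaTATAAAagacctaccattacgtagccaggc
Reg3g (chr6:78468875-78469124, minus strand): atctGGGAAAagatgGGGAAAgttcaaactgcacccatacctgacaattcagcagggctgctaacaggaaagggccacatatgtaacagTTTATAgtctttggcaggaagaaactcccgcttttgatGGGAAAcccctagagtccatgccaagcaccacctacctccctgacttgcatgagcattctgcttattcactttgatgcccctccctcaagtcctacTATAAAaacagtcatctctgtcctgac
Reg1 (chr6:78425733-78425982, plus strand): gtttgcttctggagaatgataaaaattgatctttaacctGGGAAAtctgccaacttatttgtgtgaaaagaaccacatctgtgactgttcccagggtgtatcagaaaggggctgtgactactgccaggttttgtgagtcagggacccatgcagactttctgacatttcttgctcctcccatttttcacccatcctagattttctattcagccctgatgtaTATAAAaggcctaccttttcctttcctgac

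The upstream regions of Reg3b and Reg3g were the most alike, with 68.4% identical positions in a global alignment, against a median of 50.7% over the 15 pairs of Reg genes. A TATAAA match lay near the start in Reg1, Reg2, Reg3b and Reg3g, 4 of 6 Reg genes, and 12.4% of the 32851 promoter windows of the same length held one anywhere. The STAT letters TTCNNNGAA were found in Reg3b at positions -129 to -121 from the start and in Reg3d at -238 to -230, the latter overlapping matches to TTTCCC and CTGGGA. Of all windows, 7.02% held that motif. CACCTG was found in Reg2, Reg3a, Reg3b and Reg3d, against 17.2% of all windows, and TTTCCC in Reg1, Reg3b, Reg3d and Reg3g, against 21.9%. CTGGGA, the core of the interleukin-6 response element, was found in Reg1, Reg3a, Reg3d and Reg3g, against 27.0% of windows. The NF-kB site, searched as GGG and CC with any 5 bases between them, was found in Reg3g among the Reg genes, where it overlaps a TTTCCC match, and also in Lcn2 and Cxcl1, against 45.8% of windows. CAAGGTCA, the site of the acinar factor NR5A2, was in none of the 6 windows and in 1.33% of all. These are matches of letters, searched on both strands, and none of the 7 motifs was found in all of Reg3b, Reg3a and Reg2 and in no other Reg gene.

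**Figure D1:**
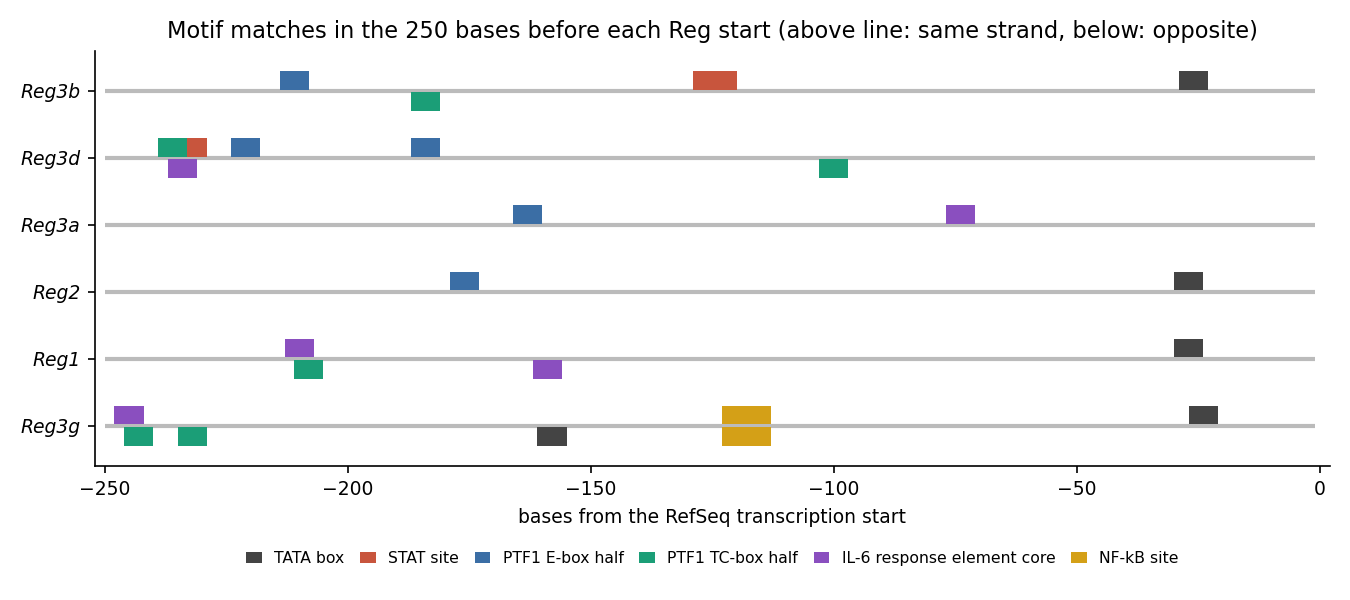
Motif matches in the 250 bases before the RefSeq start of each Reg gene, in their order along chromosome 6. The x axis gives bases from the start; boxes above a line are on the gene's strand and boxes below it on the opposite strand. STAT matches lie in Reg3b and Reg3d, and TATA matches near the start in Reg1, Reg2, Reg3b and Reg3g.

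Gene counts ran from 31019500 to 34041901 per library, so 3 counts correspond to 0.0804 to 0.123 CPM, the unit used here for counts scaled to library size with TMM factors. In the knockouts Trip12 RNA fell to 14.03 ± 0.917 CPM from 25.9 ± 3.36 CPM (SD, n = 3 each; log2 fold change -0.89, adjusted p = 0.0256 in edgeR's quasi-likelihood test). Xist and Y-linked counts showed that control 1 and all 3 knockouts were male and that controls 2 and 3 were female, so sex and genotype are partly confounded. Acinar markers were abundant in every library, with a summed level of 385416 to 600934 CPM over 14 genes. The tables hold multimapped reads in a row of their own, outside genes. No stretch of 100 bases of the longest coding transcript of any member occurred in the transcript of another gene. Of stretches of 50 bases, 32 of 855 in Reg1 and 99 of 2151 in Saa3 did, and those of the other members did not. Reg transcripts were 49.1% to 68.0% identical to each other.

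Reg1, the acinar Reg protein also called lithostathine, was by far the most abundant member. Its mean TMM-scaled level in the knockouts was 49.1% of that in the controls. As a share of gene counts its fall was smaller, with means of 1.16% in control and 0.784% in knockout. It took 0.741%, 1.36% and 1.37% of the gene counts in controls 1 to 3 and 0.710%, 0.977% and 0.665% in knockouts 1 to 3, which placed it 17th to 21st among all genes. In CPM it stood at 7293, 17346 and 16995 in the controls and at 5960, 8737 and 5733 in the knockouts. Control 1 lay with the knockouts: 2 of 3 knockouts were below every control, and knockout 2 lay above control 1. The means were 13878 ± 5706 CPM in control and 6810 ± 1672 CPM in knockout (SD, n = 3 each). The log2 fold change was -1.03 (SE 0.35) and did not pass the test (adjusted p = 0.208 over 13115 genes, edgeR; exact two-sided permutation p = 0.2, where 0.1 is the smallest possible).

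The call of Reg1 changed with the fit. With the replicate number as a block, a pairing that the labels do not state, the log2 fold change of Reg1 was -0.95 (SE 0.24, edgeR adjusted p = 0.0432). Its knockout-to-control ratios in same-numbered libraries were 0.817, 0.504 and 0.337, below 1 in 3 of 3 pairs. DESeq2, without the block, also called it lower (adjusted p = 0.0141). Without control 1 it was -1.36 (edgeR adjusted p = 0.0129). Scaled by library totals it was -0.56 (edgeR adjusted p = 0.178). With sex in the fit it was -0.10 (SE 0.25, edgeR adjusted p = 0.923): the male control, at 7293 CPM, lay inside the range of the male knockouts, 5733 to 8737 CPM, and both female controls lay at 16995 and 17346 CPM. With 1 male control and no female knockout, an effect of genotype on Reg1 cannot be told apart from an effect of sex. With TMM scaling the summed acinar markers were lower in every knockout than in every control, whereas for Reg1 control 1 lay among the knockouts. Control 1 was the lowest control for both. The markers stood at 450314, 600934 and 571657 CPM in controls 1 to 3 and at 385416, 391118 and 391648 CPM in knockouts 1 to 3. Within the knockouts they did not follow Reg1, knockout 3 having the highest marker sum and the lowest Reg1. These are TMM-scaled values. Of the 14 acinar markers 13 had a negative log2 fold change, with a median of -0.51, and none was called. Library totals moved the median log2 fold change of all tested genes up by 0.41, so much of the markers' fall depends on the scaling. With the block 3 of the markers fell, Cpb1, Ptf1a and Gp2, and 1 rose, Rbpjl, against 2.58% lower and 3.40% higher of all tested genes. Their part in the Reg1 values was not tested. In such bulk preparations fewer cells of a type and less RNA per cell cannot be told apart.

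Reg3d, a pancreatic Reg3 gene of little-known function, was the second most abundant member per length and the steadiest, its highest library being 1.86 times its lowest. It stood at 141, 262 and 218 CPM in controls 1 to 3 and at 152, 218 and 152 CPM in knockouts 1 to 3. As for Reg1, control 1 was the lowest control, and here it was the lowest of all 6 libraries. The log2 fold change of -0.25 (SE 0.25, edgeR adjusted p = 0.690) was no larger than its error, and turned to 0.31 with sex in the fit (edgeR adjusted p = 0.716) and to 0.20 with scaling by library totals. That scaling moved the median log2 fold change of all tested genes up by 0.41.

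Reg2, Reg3b and Reg3a were high in both libraries numbered 2, control and knockout alike, and low in the other 4. Reg2, the second acinar Reg protein, stood at 33.4, 181 and 39.5 CPM in controls 1 to 3 and at 46.9, 210.5 and 33.9 CPM in knockouts 1 to 3. Both libraries numbered 2 were at least 3.85 times every other library, whereas the group means of 84.5 ± 83.3 and 97.1 ± 98.4 CPM (SD, n = 3 each) differed by less than either SD. Reg3b, the pancreatitis-associated protein, stood at 7.28, 82.5 and 11.1 CPM in the controls and at 4.24, 142 and 3.03 CPM in the knockouts. The lower of the libraries numbered 2 was 7.44 times the highest of the others, the largest such step among all 13115 tested genes. Reg3a, a further lectin of the same group, stood at 0.724, 9.20 and 2.62 CPM in the controls and at 2.57, 24.6 and 1.74 CPM in the knockouts, a step of at least 3.52 times. Its values outside the libraries numbered 2 rested on 23 to 96 counts per library.

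Reg3g, the intestinal antibacterial lectin closest to Reg3b in sequence, showed the step mainly in the knockout. It had 37, 78 and 57 counts (1.17, 3.204 and 2.07 CPM) in controls 1 to 3 and 15, 857 and 26 counts (0.402, 24.5 and 0.697 CPM) in knockouts 1 to 3. Control 2 was the highest control but stood only 1.55 times above control 3, and knockout 2 stood 7.64 times above control 2. Knockouts 1 and 3 were below every control for Reg3g and Reg3b.

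**Figure D2:**
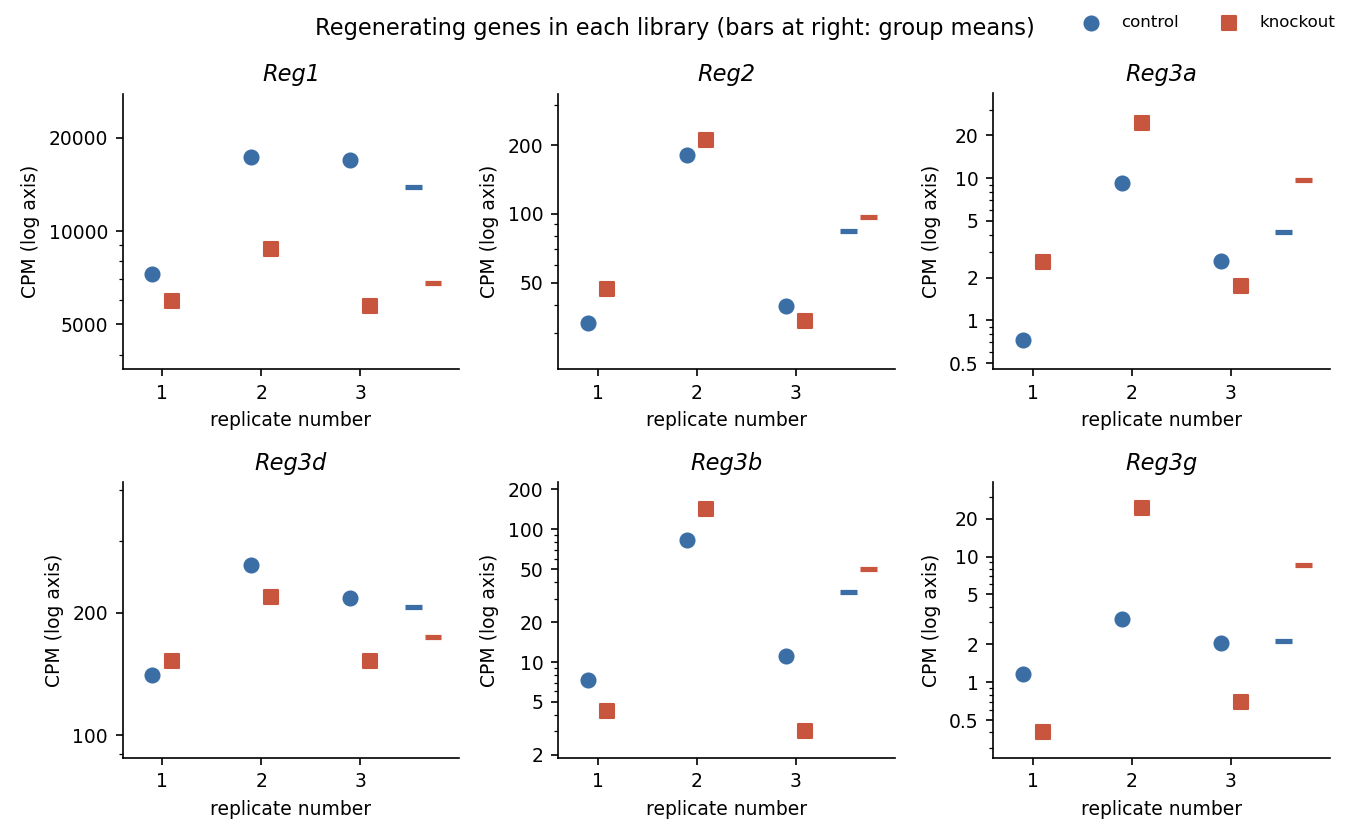
Level of each Reg gene in CPM (log axes, a separate scale for each gene) by replicate number in control (circles) and knockout (squares), with group means as short bars at the right. Reg2, Reg3b and Reg3a are high in both libraries numbered 2, up to 142 CPM for Reg3b against 3.03 to 11.1 CPM elsewhere, while Reg1 and Reg3d vary less.

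Few genes shared this pattern at that size. Both libraries numbered 2 lay above the other 4 in 5 of 6 Reg genes, against 6.19% of all tested genes. For Reg3d the margin was below 1%. The exception was Reg1, for which number 2 was the highest library of each genotype but control 3 lay above knockout 2. A margin of at least 2-fold was seen for 7 of 13115 genes (0.0534%), namely Reg3b, Reg2, Reg3a, the long noncoding transcripts AI480526, Gm38102 and Mir17hg, and D930048N14Rik. This grouping was chosen after the values were seen and the counts are descriptions. In the blocked fit, the term for the replicate number passed for Reg2 (edgeR adjusted p = 0.000118, a level 2.29 higher on the log2 scale in number 2 than in number 1) among 4.64% of tested genes. It did not pass for Reg3a (edgeR adjusted p = 0.0857), Reg3b (0.208), Reg3d (0.189), Reg1 (0.281) or Reg3g (0.623), for which number 2 stood 3.34, 4.42, 0.70, 0.86 and 4.02 above number 1 on that scale. The 3 Reg genes with a margin of at least 2-fold are not all side by side on the chromosome. The order along it is Reg3b, Reg3d, Reg3a, Reg2, Reg1 and Reg3g, with no other annotated gene in between. Reg3a and Reg2 are neighbours, and Reg3d, with its margin below 1%, lies between Reg3b and Reg3a.

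Control 2 was female and knockout 2 male. Summed over 10 macrophage markers, the level was 85.0, 21.9 and 25.01 CPM in controls 1 to 3 and 67.1, 18.7 and 79.5 CPM in knockouts 1 to 3, lowest in the libraries numbered 2 of both genotypes. Fibroblast markers followed the same course, at 95.7, 21.7 and 31.2 CPM and at 107, 25.01 and 91.3 CPM. The 10 lymphoid markers did not, at 45.2, 10.9 and 0.654 CPM and at 34.1, 4.05 and 1.80 CPM. With the block 4 of the 10 macrophage markers were called higher, Adgre1, C1qa, C1qb and C1qc, against 3.40% of all tested genes. In pairs 2 and 3 these calls cannot be told apart from an effect of sex. The 10 neutrophil markers summed to at most 2.63 CPM in any library, with Ly6g at 0 counts throughout. The 12 intestinal markers, which would mark carried-over gut, summed to at most 3.84 CPM, with Fabp2, Cdx1 and Apoa4 at 0 counts and the libraries numbered 2 at 1.81 and 0.742 CPM. The 12 islet markers summed to 468, 461 and 360 CPM in controls 1 to 3 and to 919, 663 and 247 CPM in knockouts 1 to 3, so knockout 2 was second only to knockout 1 and control 2 lay just below control 1. The part of these cells in the Reg values was not tested.

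**Figure D3:**
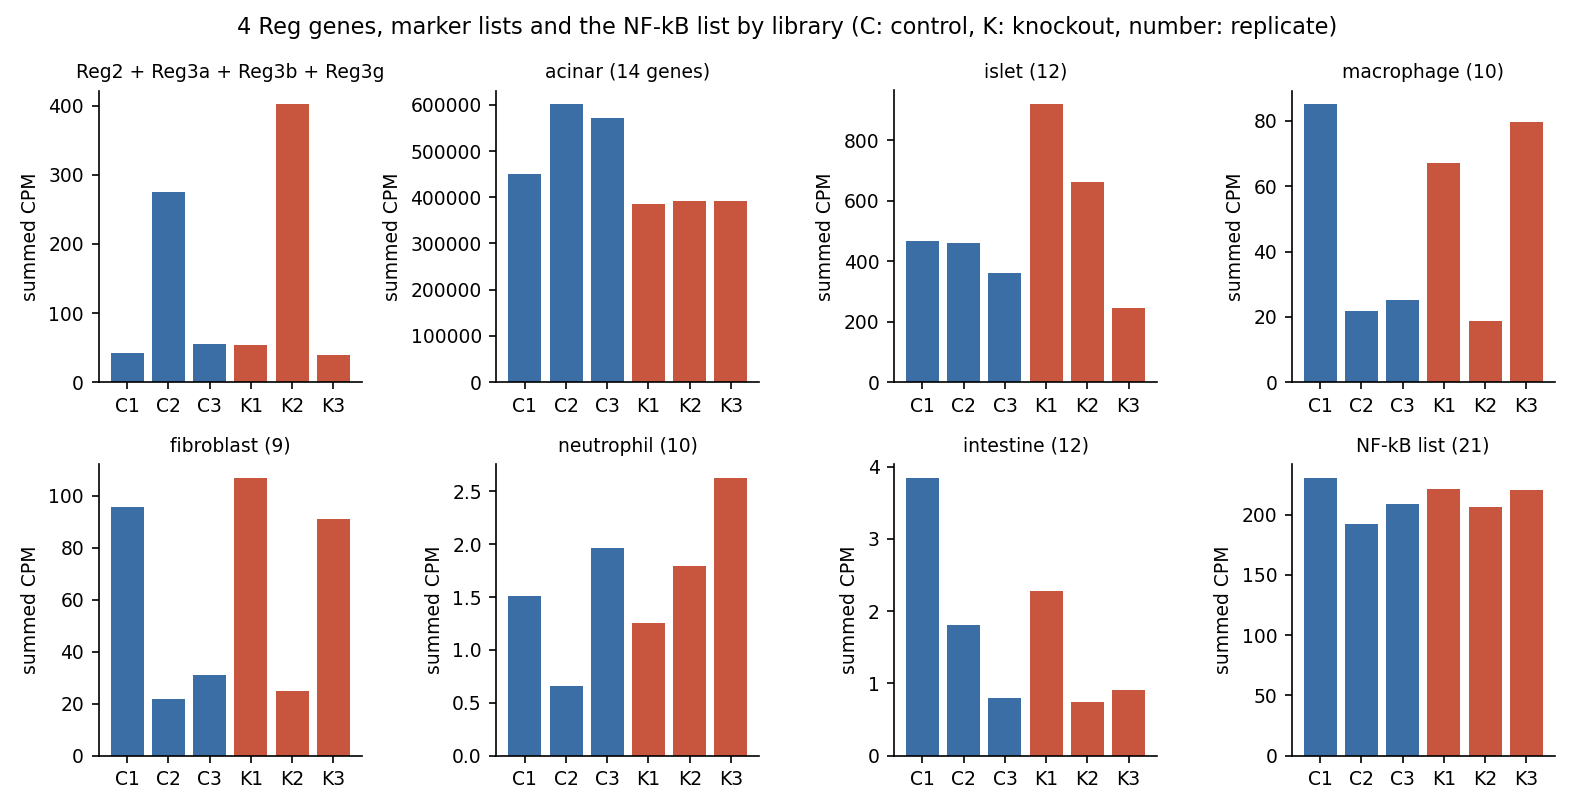
Summed CPM per library (C control, K knockout, number the replicate) for Reg2, Reg3a, Reg3b and Reg3g together, for 6 marker lists and for the NF-kB list. The 4 Reg genes sum to 276 and 402 CPM in C2 and K2 and to 39.3 to 55.3 CPM in the other libraries, while macrophage and fibroblast markers are lowest in C2 and K2.

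Between genotypes no member was called by edgeR without the block, and Reg1 was called lower with it. Without the block, 0 of the 7 members with enough counts were called, against 0.945% of all tested genes (0.465% higher and 0.480% lower in knockout), and Reg1 alone had an unadjusted p under 0.05, as had 16.7% of tested genes. In none of the 7 did the groups separate fully, as they did in 22.9% of tested genes, lower in knockout in 10.9%. DESeq2 called 1 member, Reg1, and gave no adjusted p for Reg3b and Reg3g. The log2 fold changes were 0.20 (SE 1.06) for Reg2, 1.22 (SE 1.47) for Reg3a, 0.57 (SE 1.90) for Reg3b and 2.00 (SE 1.75) for Reg3g, with edgeR adjusted p-values of 0.952, 0.762, 0.924 and 0.658. For Reg2, Reg3a and Reg3b each group held 1 high library, and for Reg3g only the knockout did. With the block, 1 of 7 was called, Reg1, which was lower, against 5.99% of tested genes (3.40% higher and 2.58% lower), and the SE of Reg2 fell to 0.17 around a log2 fold change of 0.16 (edgeR adjusted p = 0.604). Under library totals with the block, Reg1 was not called (edgeR adjusted p = 0.0540) and Reg2 and Reg3a were called higher, at 0.59 and 1.33, while the median of all tested genes moved up by 0.43. Without both libraries numbered 2 the estimate for Reg3b turned from 0.57 to -1.34 and that for Reg3g from 2.00 to -1.55, and neither passed. Ratios within same-numbered pairs 1 to 3 were 0.582, 1.72 and 0.273 for Reg3b and 0.345, 7.64 and 0.337 for Reg3g, so pair 2 went opposite to pairs 1 and 3. For Reg3a they were 3.55, 2.67 and 0.666, and for Reg2 1.41, 1.17 and 0.857.

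**Figure D4:**
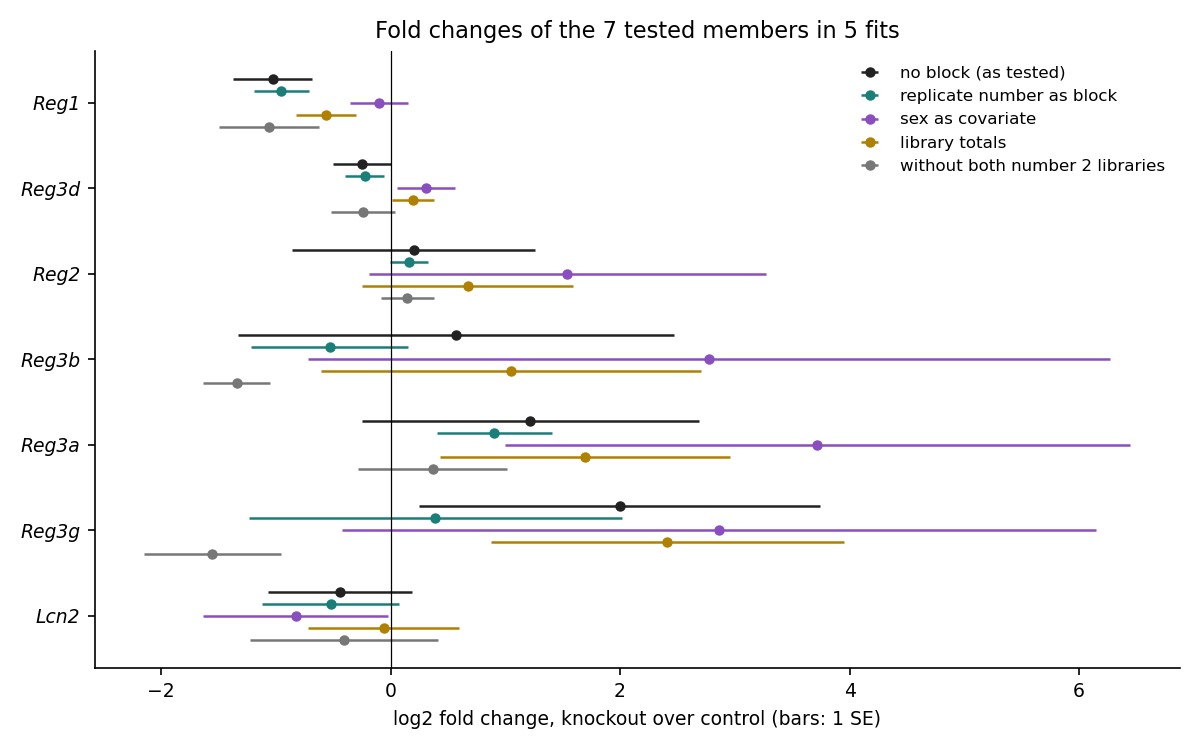
Log2 fold change of knockout over control with 1 SE for the 7 tested members in 5 fits. Reg1 lies near -1 in the fits without sex and with TMM scaling and at -0.10 with sex as covariate, and the estimates for Reg3b and Reg3g change sign between fits.

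As a family the Reg genes took 0.759%, 1.40% and 1.40% of gene counts in controls 1 to 3 and 0.735%, 1.05% and 0.687% in knockouts 1 to 3. The means of 1.19% ± 0.370 and 0.823% ± 0.195 (SD, n = 3 each) follow Reg1, which made up 93.4% to 98.4% of the family's counts. Per kilobase of transcript the mean levels were ordered Reg1 (11442 CPM per kb), Reg3d (244), Reg2 (130), Reg3b (53.3), Reg3a (8.37) and Reg3g (6.92). From Reg3d down, neighbours in that order overlapped in their ranges over the 6 libraries, 180 to 335 CPM per kb for Reg3d, 47.8 to 302 for Reg2, 3.87 to 182 for Reg3b, 0.878 to 29.8 for Reg3a and 0.521 to 31.7 for Reg3g. Reg1, at 6342 to 19188 CPM per kb, lay above all of them.

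Lcn2, Saa3, Ccl2 and Cxcl1 were close to absent. Lcn2 had 19, 7 and 13 counts in controls 1 to 3 and 8, 7 and 22 counts in knockouts 1 to 3. These are 0.453 ± 0.156 CPM in control and 0.335 ± 0.221 CPM in knockout (SD, n = 3 each; log2 fold change -0.44, SE 0.63, edgeR adjusted p = 0.802). Saa3 had 0 counts in all 3 controls, and 0, 1 and 5 in the knockouts. Ccl2 had 8, 2 and 4 counts in the controls and 3, 2 and 10 in the knockouts; it overlaps Gm17268 on the opposite strand, and the counts do not use strand. Cxcl1 had 8, 0 and 0 counts in the controls and 12, 5 and 7 in the knockouts, so 2 controls were at 0. The last 3 were too low to be tested. None of the 4 was highest in a library numbered 2: there Lcn2 had 7 counts in each genotype and Ccl2 2 counts in each. A count of 0 limits a gene only to about 3 counts, 0.0945 to 0.123 CPM in the controls, so a difference below that was not detectable at this depth.

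**Figure D5:**
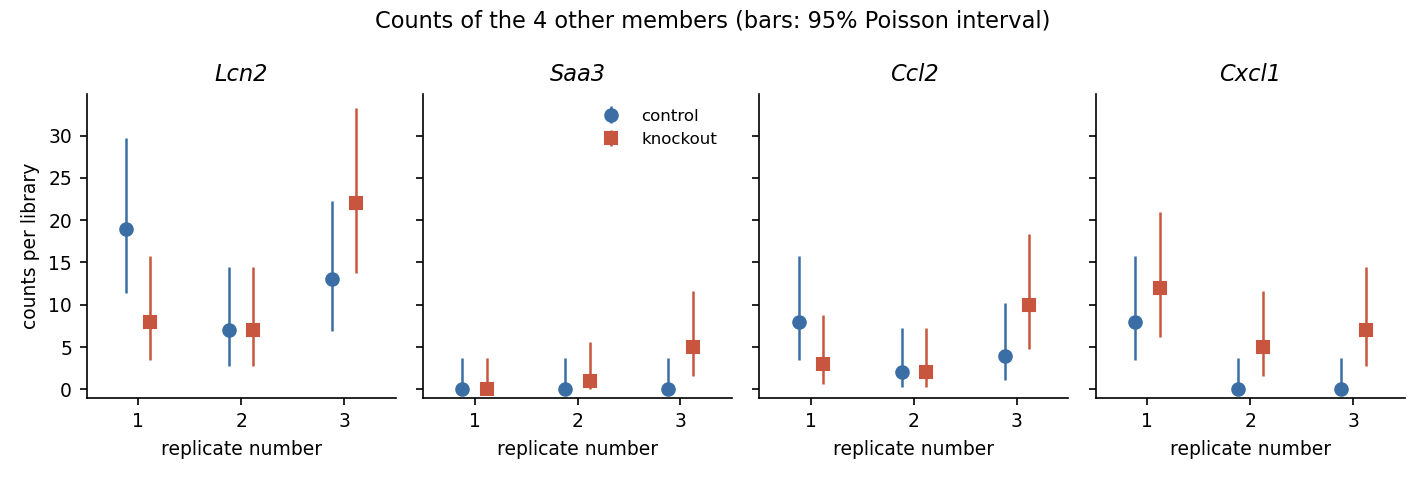
Counts of Lcn2, Saa3, Ccl2 and Cxcl1 in each library by replicate number, control as circles and knockout as squares, with 95% Poisson intervals that cover counting error only. No library exceeds 22 counts.

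None of the tested genes in the 6 pathway lists around these members was called by edgeR without the block, against 0.945% of all tested genes. With the block edgeR called 5 of 72, against 5.99% of all tested genes. DESeq2, without the block, called 3 of 72, against 594 of 13115. Other fits without the block called 9 of 72 with library totals (1519 of 13115 in all) and 6 of 95 with no filter (850 of 25772). They called 4 of 76 without control 1 (461 of 13533) and 1 of 75 without knockout 2 (88 of 13749). The sex covariate gave 0 of 72 (21 of 13115), and the block with library totals 28 of 72 (3259 of 13115). In pairs 2 and 3 a female control faced a male knockout, so blocked calls in these lists cannot be told apart there from an effect of sex. At an unadjusted p under 0.05, as for 16.7% of all tested genes, edgeR had 3 STAT3 genes lower, 5 acinar injury genes higher and 2 acinar injury genes lower, and no gene of the other lists. In the list of receptors, 0 of 5 tested genes of 10 were called, with a median log2 fold change of 0.37 against 0.02 over all tested genes. Extl3, the proposed receptor of Reg proteins, stood at 119 ± 21.9 CPM in control and 128 ± 16.1 CPM in knockout (log2 fold change 0.10, edgeR adjusted p = 0.854). Slc22a17, a proposed lipocalin 2 receptor, was 7.84 ± 1.56 and 10.1 ± 5.37 CPM and, alone among all the pathway genes tested, highest in both libraries numbered 2. Tlr2, a pattern receptor that binds serum amyloid, was 1.86 ± 0.309 and 1.70 ± 0.101 CPM. The neutrophil receptors Cxcr1 and Fpr2 were at 0 counts throughout. Cxcr2, in the same list, was too low to be tested. It had 11, 3 and 0 counts in controls 1 to 3 and 2, 4 and 2 counts in knockouts 1 to 3.

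Of the genes feeding STAT3, 0 of 15 tested of 20 were called, with a median log2 fold change of -0.02. Il6st, the shared gp130 chain of the interleukin-6 receptors, was 28.3 ± 7.61 CPM in control and 28.01 ± 4.87 CPM in knockout, Lifr 60.1 ± 14.7 and 50.8 ± 4.03 CPM, and the kinase gene Jak1 55.2 ± 11.3 and 44.8 ± 4.58 CPM. Il6 itself had 1 count in knockouts 1 and 2 and 0 in the other libraries, and Il22 had 0 counts in all, so the libraries hold almost no transcript of either cytokine. The NF-kB list had 0 of 19 tested of 21 called, with a median of 0.07. Its most abundant members were Irak1, an adaptor kinase, at 80.8 ± 5.29 and 68.4 ± 9.68 CPM, Chuk, an IkB kinase, at 19.2 ± 1.51 and 22.3 ± 1.81 CPM, and Rela, the p65 subunit, at 14.4 ± 2.08 and 15.9 ± 1.76 CPM. With the block, 2 of the 19 rose, against 3.40% of all tested genes. They were Nfkbia, the inhibitor that NF-kB itself induces (log2 fold change 0.75, edgeR adjusted p = 0.0133), and the receptor gene Il1r1 (1.24, edgeR adjusted p = 0.0379).

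All 9 tested genes of the acute phase list of 19 had positive log2 fold changes, with a median of 0.70, and 0 were called. The complement gene C3 was 9.29 ± 7.70 CPM in control and 22.1 ± 11.8 CPM in knockout (log2 fold change 1.24, edgeR adjusted p = 0.518), ceruloplasmin (Cp) 12.7 ± 5.38 and 21.8 ± 7.998 CPM, and Itih4 10.7 ± 5.25 and 21.8 ± 10.4 CPM. The groups of C3 overlapped, with control 1 at 18.0 CPM and knockout 2 at 8.56 CPM. Macrophage markers were likewise highest in control 1 and knockouts 1 and 3, and their part in these values was not tested. The other serum amyloid genes, Saa1, Saa2 and Saa4, were at 0 counts in all 6 libraries, as were Orm1, Fgb, Fgg and Hamp. Of 15 chemokine genes 5 were tested and 0 were called (median 0.22): Cxcl12 was 9.16 ± 2.81 and 10.7 ± 5.25 CPM, Cxcl16 0.867 ± 0.862 and 2.05 ± 0.561 CPM, and Cx3cl1 0.929 ± 0.538 and 1.84 ± 1.05 CPM.

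Of the 23 acinar injury genes 19 were tested, with a median log2 fold change of 0.18, and edgeR without the block called 0, although 5 were higher and 2 lower at an unadjusted p under 0.05. The trypsin inhibitor gene Spink1 was 857 ± 195 CPM in control and 528 ± 153 CPM in knockout (log2 fold change -0.70, edgeR adjusted p = 0.228), and fell with the block (-0.72, edgeR adjusted p = 0.0484). The stress gene Nupr1 was 1379 ± 380 and 1684 ± 223 CPM, and the trefoil peptide gene Tff2 1393 ± 462 and 909 ± 41.1 CPM. With the block Spp1, which encodes osteopontin, rose by 1.01 on the log2 scale (edgeR adjusted p = 0.0177) and the TWEAK receptor gene Tnfrsf12a by 1.03 (edgeR adjusted p = 0.0241). These 2 rises and the fall of Spink1, among 19 genes, stand beside 3.40% higher and 2.58% lower of all tested genes. Spp1 is also among the 10 duct markers, of which Krt7 and Ambp likewise rose with the block (edgeR adjusted p = 0.0170 and 0.0173). Krt19 and Muc1 fell (edgeR adjusted p = 0.00645 and 0.0355), beside the same shares of all tested genes. Pairs 2 and 3 set a female control against a male knockout, so there these blocked changes cannot be told apart from an effect of sex. Summed, the duct markers stood at 194, 206 and 235 CPM in controls 1 to 3 and at 277, 185 and 289 CPM in knockouts 1 to 3, and their part in the Spp1 values was not tested. Reg4, the Reg gene outside the cluster, was at 0 counts in all libraries. None of the 23 genes was highest in both libraries numbered 2.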

How the data were processed

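Raw counts per gene were deposited by the authors, 1 table per library, as whole numbers in an unstranded column and a column for each strand. STAR 2.7.10a and the builds GRCm39 and mm39 are named in the submitters' processing notes, with no role given. The unstranded counts were used, since the forward strand held 50.1% to 50.3% of stranded counts. Reads outside genes, unmapped, ambiguous and multimapped stayed out of library sizes; multimapped reads were 26.0% to 28.4% of reads in control and 21.6% to 24.1% in knockout. Symbols came from GENCODE M21 (GRCm38), which named 52081 of 55414 identifiers (94.0%). Promoter sequences came from RefSeq tables of GRCm38.p6, which hold 9 of the 10 members, not Ccl2.

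Genes passing filterByExpr (13115) were tested with edgeR 4.0.16 in R 4.3.3: TMM factors, robust quasi-likelihood F test, Benjamini-Hochberg adjustment over all of them, called at an adjusted p under 0.05. The standard error is the log2 fold change divided by the square root of F. A prior count of 2 was added for log2 CPM. The fit was checked on simulated counts. DESeq2 1.42.0, limma 3.58.1, other scalings and filters, single strands, a sex covariate, a replicate block and each library left out were alternatives. Fits without the libraries numbered 2, the test of the replicate number and the counts of genes high in them were added after seeing the data. Intervals cover counting error only. Upstream windows were aligned globally with biopython 1.88.

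Deviations from group means correlated at 0.63, 0.455 and 0.285 in same-numbered pairs and at -0.496 to 0.21 otherwise. The 3 deviations of a gene in a group sum to 0, so these correlations constrain each other and do not establish a pairing. They were read from the same values that the blocked tests use. The main fit left the replicate numbers out, and the labels do not state what the numbers mark. The members and lists were chosen with earlier results of these data known. Named genes were the 10 members, Trip12, the called genes and 3 most abundant tested genes of each pathway list, genes called with the block, and the 5 genes of at least 10 CPM most like the mean member profile, of which 1 is not reported here. Genes named at 0 or few counts, or high in the libraries numbered 2, were chosen after their values were seen.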

Additional observations from a re-analysis of the deposited data

How the results depend on the processing

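Without a block 124 of 13115 genes were called. Library totals gave 1519, no filter 850, at least 10 counts in every library 210, DESeq2 594, a sex covariate 21 and leaving out both libraries numbered 2 gave 10. Leaving out 1 library gave 20 to 461 calls. The replicate block gave 785, and 3259 with library totals. Members called were 0, and 1 (Reg1, lower) with no filter, DESeq2 or the replicate block, whose adjusted p-values were 0.00173, 0.0141 and 0.0432. With the block and library totals 2 were called, Reg2 (0.59) and Reg3a (1.33), both higher. Leaving out 1 library gave 0 to 1 members called, Reg1 being called without control 1. With TMM factors the block changed the call of Reg1 alone among the members. With 1 library left out, log2 fold changes ran from -1.07 to 1.41 for Reg2, -0.95 to 2.54 for Reg3a, -3.21 to 2.44 for Reg3b and -1.96 to 2.56 for Reg3g. Signs of log2 fold changes turned as follows. Reg2 was -0.22, -0.14 and -1.07 without control 1, control 3 and knockout 2. Reg3a was -0.95 without knockout 2. Reg3b was -0.62 with limma-voom, -0.53 with the block, -0.13 with the block and library totals, -3.21 without knockout 2, -1.32 with the block without pair 2 and -1.34 without both libraries numbered 2. Reg3d was 0.20 with library totals, with or without the block, and 0.31 with the sex covariate. Reg3g was -0.058 with limma-voom, -1.96 without knockout 2, and -1.55 without both libraries numbered 2, with or without the block. The causes were not tested. Reg1 stayed negative in all 22 alternatives, from -1.36 to -0.10, and Lcn2 in the 19 that tested it. The knockout minus control difference in Reg family share, a description without a test, was -0.363 percentage points of gene counts. It was -0.724 without the acinar markers in the total, -0.157 of all reads, -0.577 without control 1, and -0.475 to -0.255 with another library left out. Saa3, Ccl2 and Cxcl1 were limited by depth.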

Other observations

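Over the 6 libraries, the 4 genes among 3885 candidates whose log2 CPM followed the mean profile of the 6 Reg genes most closely were Lyrm9 (Pearson r 0.989), Sra1 (0.983), Sdf4 (0.978) and Ttc13 (0.976), given as a description without p. Lyrm9, the closest, varied far less than Reg3a, Reg3b or Reg3g and stood at 15.2, 20.95 and 18.2 CPM in controls 1 to 3 and at 14.5, 23.7 and 14.2 CPM in knockouts 1 to 3. The genes most like Lcn2 were Crkl (0.963), Slmap (0.953), Ccdc6 (0.953), Prpf8 (0.946) and Uba1 (0.939). Lcn2 had only 7 to 22 counts per library, so its profile carries much counting error and these likenesses are descriptions only.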
